A study of Homo sapiens with 18 samples.

Results

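ACTB and 9 of its neighbours on the short arm of chromosome 7 (band 7p22) were examined, namely TNRC18, FBXL18, FSCN1, RNF216, PMS2, EIF2AK1, USP42, CYTH3 and RAC1. These 10 genes, of 20098 protein-coding genes on chromosomes 1 to 22 and X, lie between 5 and 7 Mb of chromosome 7 (hg19). They were chosen by measured values, because peaks of the single-fixation protocol (xChIP) were dense over this interval and peaks of the double-fixation protocol (xxChIP) were sparse there. The coverage of these genes by peaks is therefore a description of what was selected and carries no test.

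The study immunoprecipitated the linker histones H1.2 and H1.5 from undifferentiated HL-60/S4 cells, an established human myeloid leukemia line grown in suspension, with 3 replicates for each of the 4 combinations of protocol (xChIP or xxChIP) and antibody (anti-H1.2 or anti-H1.5). All cells were fixed with formaldehyde, permeabilized and frozen before either protocol began. In xChIP the chromatin was sonicated before it met the antibody, while in xxChIP the antibody bound inside the permeabilized cells and was fixed there before a longer sonication, so fixation order, sonication and the handling of the antibody cannot be told apart here. Each of the 4 lists analysed is the merge of the peaks of its 3 replicates, holding peak positions alone, so depth and the spread between replicates are unknown.

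Linker histones bind the nucleosome where DNA enters and leaves it and help to fold arrays of nucleosomes, and H1.2 and H1.5 are somatic variants of this family. A peak of xChIP marks DNA whose H1 could be recovered from fragmented chromatin, whereas a peak of xxChIP marks DNA whose H1 epitope could be reached by the antibody in the fixed nucleus. The 10 genes serve several basic functions of the cell. ACTB encodes cytoplasmic beta-actin, and FSCN1, RAC1 and CYTH3 encode an actin-bundling protein, a small GTPase that directs actin assembly and an exchange factor for ARF GTPases. FBXL18, RNF216 and USP42 act in the ubiquitin system as an F-box substrate receptor, a ubiquitin ligase and a deubiquitinase, respectively. PMS2 takes part in DNA mismatch repair, EIF2AK1 is the heme-regulated kinase of the translation factor eIF2, and TNRC18 is a large nuclear protein with a BAH domain.

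RefSeq promoter sequences were at hand for TNRC18, RNF216, PMS2 and CYTH3, and each matched hg19 once. They are shown because the H1 peaks treated these starts differently. All are on the minus strand and are written 5′ to 3′ as the 250 bases before the start, with CpG dinucleotides in capitals. The TNRC18 promoter (chr7:5463466-5463715) lay under no peak of any list. The promoters of RNF216 (chr7:5821295-5821544) and PMS2 (chr7:6048681-6048930), and the upstream one of CYTH3 (chr7:6312256-6312505), lay wholly under xChIP H1.2 peaks and under no other. The internal start of CYTH3 (chr7:6211769-6212018) again lay under none.
TNRC18: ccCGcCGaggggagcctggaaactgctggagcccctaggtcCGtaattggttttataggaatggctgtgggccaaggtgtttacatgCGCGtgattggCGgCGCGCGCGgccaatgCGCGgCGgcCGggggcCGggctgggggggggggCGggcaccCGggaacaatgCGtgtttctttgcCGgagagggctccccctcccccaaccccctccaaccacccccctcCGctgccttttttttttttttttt
RNF216: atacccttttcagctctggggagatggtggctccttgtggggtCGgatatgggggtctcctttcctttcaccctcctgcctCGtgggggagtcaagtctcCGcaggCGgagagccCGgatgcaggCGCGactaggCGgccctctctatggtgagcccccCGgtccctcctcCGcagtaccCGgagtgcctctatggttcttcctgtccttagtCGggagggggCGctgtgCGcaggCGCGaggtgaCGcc
PMS2: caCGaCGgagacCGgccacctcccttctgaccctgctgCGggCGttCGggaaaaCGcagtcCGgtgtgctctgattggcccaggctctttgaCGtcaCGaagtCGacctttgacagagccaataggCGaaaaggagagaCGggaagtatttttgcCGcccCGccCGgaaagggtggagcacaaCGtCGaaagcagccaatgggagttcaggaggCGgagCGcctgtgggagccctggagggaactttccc
CYTH3 upstream start: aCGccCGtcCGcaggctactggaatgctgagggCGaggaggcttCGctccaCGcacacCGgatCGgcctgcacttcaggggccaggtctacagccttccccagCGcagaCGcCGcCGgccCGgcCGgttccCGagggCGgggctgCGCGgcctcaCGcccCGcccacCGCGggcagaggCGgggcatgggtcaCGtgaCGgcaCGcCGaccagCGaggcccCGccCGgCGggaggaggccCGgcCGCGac
CYTH3 internal start: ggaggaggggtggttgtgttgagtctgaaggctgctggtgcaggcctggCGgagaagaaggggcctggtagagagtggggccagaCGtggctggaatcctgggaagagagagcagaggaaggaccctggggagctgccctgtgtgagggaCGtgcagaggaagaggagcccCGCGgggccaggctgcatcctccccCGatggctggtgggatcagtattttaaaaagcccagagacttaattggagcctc
The 250 bases held 20 CpG in TNRC18, 17 in RNF216, 20 in PMS2 and 34 in the upstream promoter of CYTH3, against 6 at the internal start of CYTH3 and a median of 11 over the 35097 promoters of the RefSeq table. Another RefSeq start of PMS2, whose promoter also lay wholly under xChIP H1.2, had 22 CpG, so the uncovered TNRC18 promoter was close to the covered ones of PMS2 in this count. Of all promoters in the table, 32.4% held at least 20 CpG, and 6.84% held at least the 34 of CYTH3.

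Over the whole 2 Mb, xChIP peaks covered 89.1% of bases for H1.2 and 36.1% for H1.5, while xxChIP peaks covered 4.76% and 2.01%, respectively. Relative to chromosomes 1 to 22 and X, these shares were 3.38 and 2.22 times as high for xChIP H1.2 and H1.5, and 0.236 and 0.117 times as high for xxChIP. For xChIP H1.2 the interval was not an isolated block on its left side. In the 2 Mb before it xChIP H1.2 still covered 47.4%, whereas in the 2 Mb after it the share was 16.8%, below that of chromosome 7 as a whole (29.6%). The other 3 lists were near their genome level on both sides. xxChIP H1.2 covered 18.3% on the left and 22.3% on the right (20.2% over the genome). For xxChIP H1.5 these shares were 14.9% and 21.3% (17.2%), and for xChIP H1.5 16.4% and 18.9% (16.3%). The genes with the nearest protein-coding starts outside the interval differed in the same way for H1.2. MMD2, just to the left, was covered by xChIP H1.2 over 100% of its body and by xxChIP H1.2 over 0%. C1GALT1, to the right, had 9.92% and 11.7%, respectively. For H1.5, MMD2 had 2.38% in xChIP and 2.18% in xxChIP, and C1GALT1 had 16.1% and 22.8%.

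xChIP H1.2 covered the members with a few very long peaks. The interval touched 50 xChIP H1.2 peaks with a median of 6488 bp (2334 bp over the genome), and 90.6% of their bases within it lay in peaks of at least 20 kb, against 36.1% over the genome. The longest, of 274447 bp (chr7:5787347-6061793), ran from the 5′ part of RNF216 over the whole of PMS2. Another of 169877 bp joined FBXL18, ACTB, FSCN1 and the 3′ end of RNF216. By contrast, the 123 xChIP H1.5 peaks were shorter (median 2783 bp), and the longest of them, of 63990 bp (chr7:6079855-6143844), started within EIF2AK1. Of the bases under xChIP H1.5 peaks, 98.2% also lay under xChIP H1.2 peaks, compared with 54.8% over the genome. The longest xxChIP peaks, of 4831 bp for H1.2 (chr7:5039442-5044272) and 5048 bp for H1.5 (chr7:5045245-5050292), lay at the left border and touched none of the members.

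**Figure D1:**
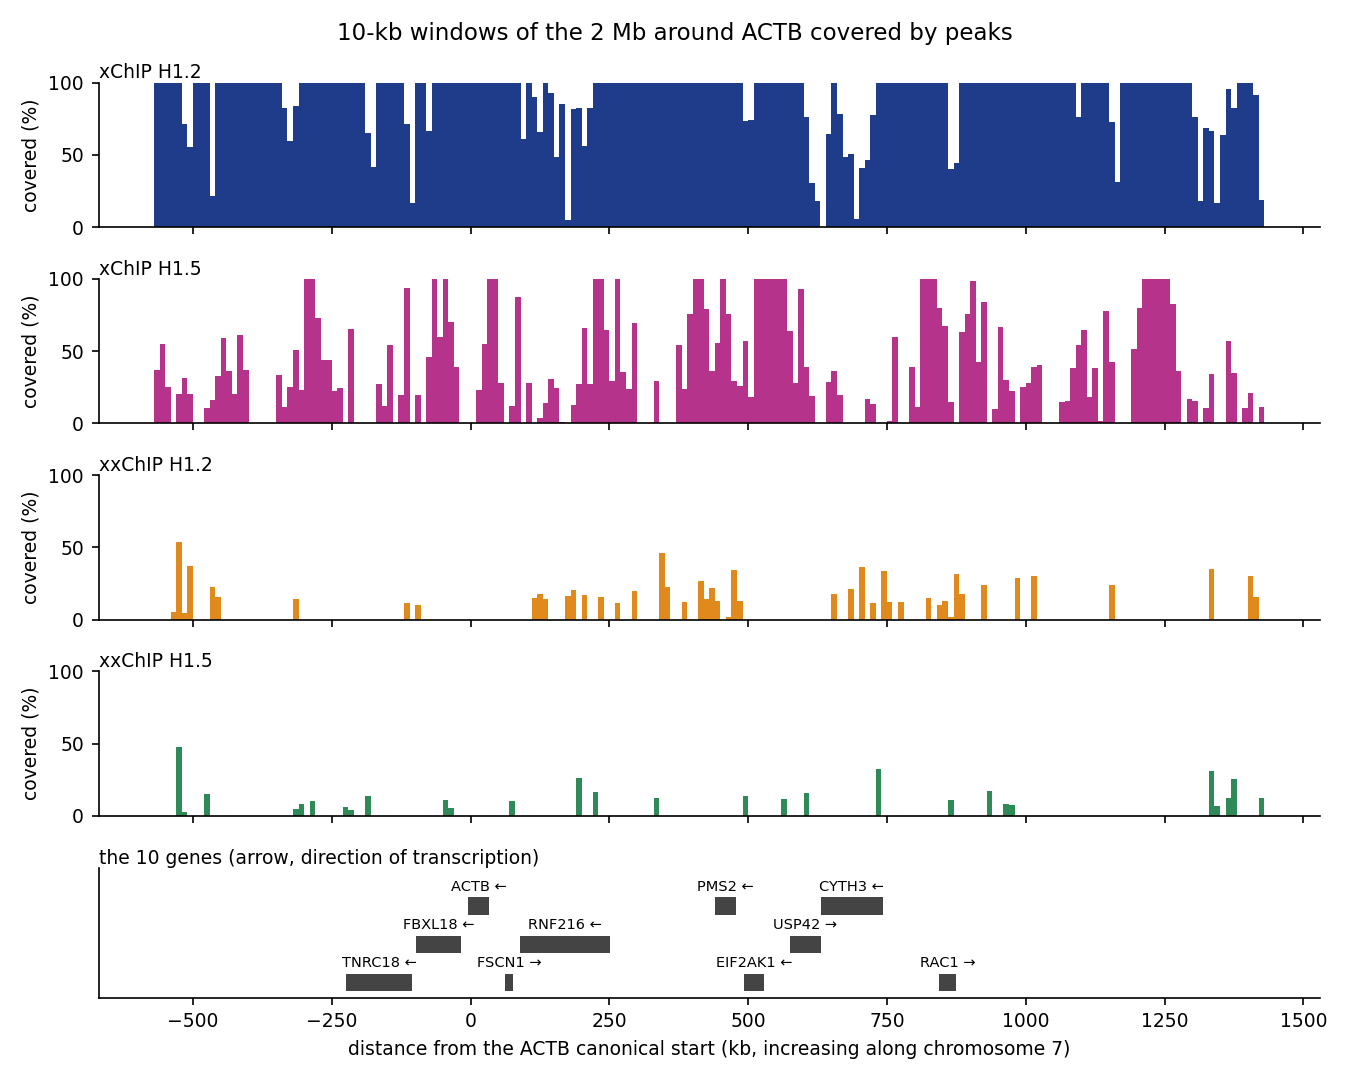
Percentage of each 10-kb window covered by peaks of each merged list (4 upper panels) against distance from the canonical start of ACTB in kb, with the 10 genes drawn to scale below. xChIP H1.2 filled 148 of 200 windows completely (74.0%, against 8.57% over the genome). xxChIP H1.2 was at 0 in 152 windows (76.0%, against 41.5%) and xxChIP H1.5 in 172 (86.0%, against 45.1%).

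In 10-kb windows, xChIP coverage was at least 20 percentage points above xxChIP coverage for both antibodies in 109 of 200 windows (54.5%), against 12.6% of 283564 windows of the genome. For H1.2 alone this held in 188 windows (94.0%) and for H1.5 alone in 110 (55.0%), so H1.5 limited the joint count. Shares over the genome were not at hand for the single antibodies. In none of the 200 windows was xxChIP above xChIP for both antibodies, a pattern that 24.0% of windows of the genome showed. Only 1 window had no xChIP H1.2 base (0.5%, against 38.4% of windows of the genome), and it held the facing 3′ ends of USP42 and CYTH3.

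Gene bodies of the members were covered by xChIP H1.2 over a median of 85.7% (57.3 to 100%), compared with a median of 26.3% over all protein-coding genes. With xChIP H1.5 the median was 33.6% (10.3% over all genes). The xxChIP medians were 1.06% for H1.2 (5.88% over all genes) and 2.74% for H1.5 (4.30%). Not every member was below these medians of all genes. PMS2, RAC1, CYTH3 and RNF216 were above that for xxChIP H1.2, and FSCN1 above that for xxChIP H1.5. A difference of at least 20 points in favour of xChIP was present for both antibodies in 8 of 10 genes, where 13.4% of all protein-coding genes had it. For H1.2 alone the difference was present in 10 of 10 members (46.8% of all genes), and for H1.5 alone in 8 of 10 (16.8%). FSCN1 and CYTH3 were the exceptions. With a difference of 40 points (4.68% of all genes), or with exons in place of the whole gene (9.49%), the joint count was 3, and these were FBXL18, PMS2 and EIF2AK1 in both cases.

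**Figure D2:**
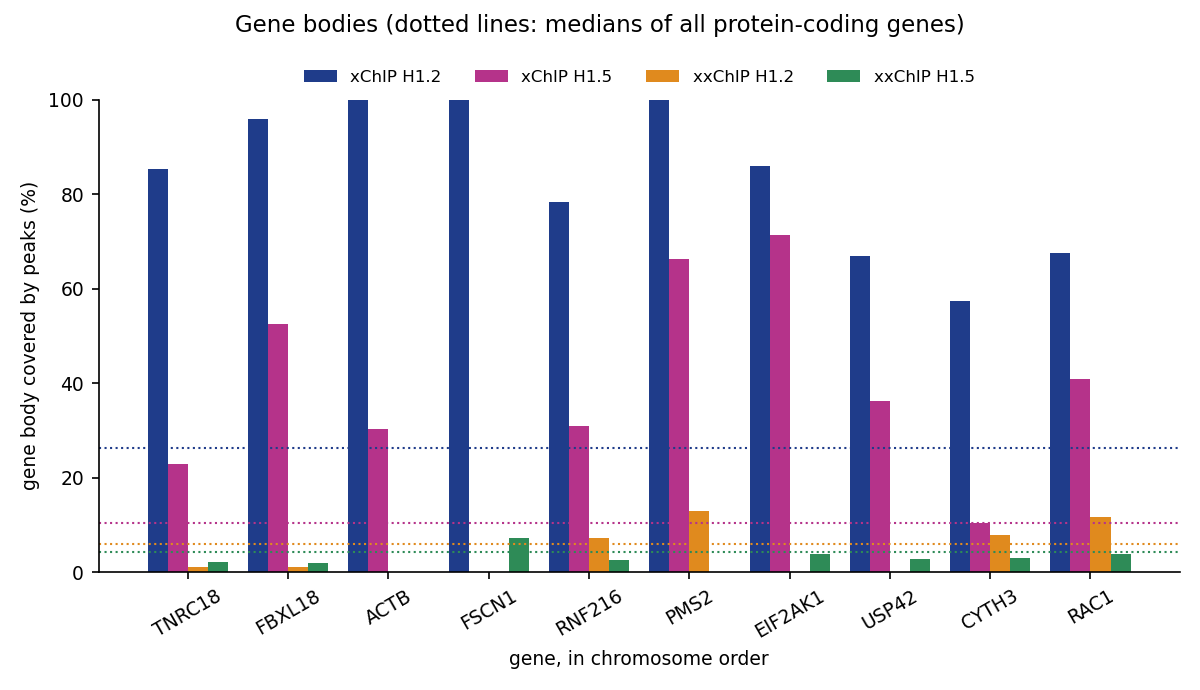
Percentage of each gene body (bars, in chromosome order) covered by peaks of the 4 merged lists, with dotted lines at the medians of all protein-coding genes. The xChIP H1.2 bars lie between 57.3 and 100%, the xChIP H1.5 bars spread from 0 to 71.3%, and no xxChIP bar exceeds 13.0%.

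Among the genes of the actin cytoskeleton, ACTB (ENSG00000075624, chr7:5566040-5603533, minus strand) was covered completely by a single xChIP H1.2 peak and over 30.3% by H1.5 peaks of that protocol, and it held no xxChIP base of either antibody. The annotated gene of 37494 bp owes most of its length to a long transcript, while the canonical transcript that yields beta-actin spans 3454 bp. Over the canonical transcript and its promoter xChIP H1.2 again covered 100%, but xChIP H1.5 was at 0%. The 3 xChIP H1.5 peaks of ACTB lay upstream of the canonical start (5570232), which itself fell in a stretch of 41985 bp without xChIP H1.5 (chr7:5545686-5587670) that reached from FBXL18 into ACTB.

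FSCN1 (chr7:5632447-5646286, plus strand) showed the opposite order of the antibodies in the 2 protocols. In xChIP its body was covered over 100% by H1.2 peaks and 0% by H1.5 peaks, and in xxChIP over 0% and 7.29%, respectively. The nearest xChIP H1.5 peak was 9628 bp from its start. The xxChIP H1.5 coverage came from a single intronic peak of 1009 bp, which lay within the xChIP H1.2 peak.

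RAC1 (chr7:6414158-6443598, plus strand) was covered in xChIP over 67.5% by H1.2 and 40.9% by H1.5, and in xxChIP over 11.6% and 3.73%, respectively. Both xChIP lists covered its promoter completely. The 5 kb at the 3′ end lay under neither xChIP list, while xxChIP H1.2 covered 20.4% of them and a like share, 20.2%, of the 5 kb at the 5′ end.

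CYTH3 (chr7:6201410-6312275, minus strand) was the member least covered by xChIP H1.2, with 57.3%, and had 10.3% for H1.5, beside 7.80% and 2.96% in xxChIP. Its xChIP H1.5 coverage was that of a middling gene, since 50.0% of protein-coding genes had less, and exceeded xxChIP by 7.33 points. It was also the member whose promoter reached an xxChIP peak, as a peak of 3374 bp (chr7:6312835-6316208) began 560 bp upstream of the start and covered 22.04% of the TSS ± 1000 bp. The middle of that peak (chr7:6314422-6314621, plus strand, CpG in capitals) is shown in contrast to the CpG-rich promoter next to it.
CYTH3 upstream xxChIP H1.2 peak: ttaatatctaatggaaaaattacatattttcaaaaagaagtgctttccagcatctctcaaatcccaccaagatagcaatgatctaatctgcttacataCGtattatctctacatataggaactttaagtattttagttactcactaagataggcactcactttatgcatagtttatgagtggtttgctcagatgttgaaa
This middle part had a GC content of 31.5% and held 1 CpG, whereas the 250 bases before the upstream start of CYTH3 had 76.8% and 34 CpG. The whole peak was less extreme, with a GC content of 45.6%. Its middle, like that promoter, also lay wholly under xChIP H1.2.

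Among the genes of the ubiquitin system, FBXL18 (chr7:5470966-5553440, minus strand) had the highest xChIP coverage, with 95.9% for H1.2 and 52.5% for H1.5 in xChIP, and 1.13% and 1.96% in xxChIP. Its promoter was filled by xChIP H1.2, but the nearest H1.5 peak was 7755 bp from the start. RNF216 (chr7:5659678-5821327, minus strand), the longest member with 161650 bp, was broken into 12 xChIP H1.2 peaks, which together covered 78.4% of it, while xChIP H1.5 covered 30.9%. It also held the most xxChIP peaks of the members, 6 for H1.2 (7.23% of the body) and 3 for H1.5 (2.64%). A stretch of 11330 bp inside RNF216 (chr7:5740473-5751802) had no peak of xChIP H1.2 or H1.5, but 14.6% of it was covered by xxChIP H1.2. USP42 (chr7:6144580-6201195, plus strand) was covered in xChIP over 66.9% by H1.2 and 36.2% by H1.5, and in xxChIP over 0% and 2.83%.

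PMS2 (chr7:6010556-6048761, minus strand) lay entirely within the longest xChIP H1.2 peak, and xChIP H1.5 covered 66.3% of it. It had the highest xxChIP H1.2 coverage of the members (13.0%, 3 peaks) and no xxChIP H1.5. Repeated sequence was examined for this gene, because the authors retained uniquely mappable reads. Of its bases, 36.6% lay in words of 100 bp that occur elsewhere in the genome, compared with at most 3.40% in any other member. When these bases were left out, the coverage of PMS2 was 100% for H1.2 and 63.7% for H1.5 in xChIP, and 17.1% for H1.2 in xxChIP. The part of mappability in its coverage was not tested. EIF2AK1 (chr7:6061878-6098806, minus strand) had the highest xChIP H1.5 coverage of the members, 71.3%, which 2.13% of protein-coding genes exceeded. Its xChIP H1.2 coverage was 85.9%, and it held no xxChIP H1.2 and 3.82% xxChIP H1.5.

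TNRC18 (chr7:5346421-5465045, minus strand) combined a covered body with a bare start. In xChIP its body was covered over 85.4% by H1.2 and 22.9% by H1.5, and in xxChIP over 1.00% and 2.04%. The H1.5 difference of 20.9 points only just exceeded the limit of 20. None of the 4 lists reached the TSS ± 1000 bp or any base of the 5 kb at its 5′ end. The gap in xChIP H1.2 around the start measured 11257 bp (chr7:5457108-5468364), and the nearest xxChIP H1.2 and H1.5 peaks were 5835 and 63862 bp away. The 10-kb window that holds this start had a GC content of 62.5%, above the median of 48.3% in the interval.

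All 10 annotated gene starts, for ACTB that of the long transcript, lay in a CpG island, compared with 67.6% of all protein-coding starts. An island was taken as any run of 200-bp windows that reached 50% GC and a ratio of observed to expected CpG of 0.6. This definition gave 357462 islands over chromosomes 1 to 22 and X. The canonical start of ACTB was not examined for an island. A promoter with an xChIP H1.2 peak and without an xxChIP H1.2 peak was found in 8 of 10 members (44.7% of all genes), the exceptions being TNRC18 and CYTH3. For H1.5 it was found in 5 of 10 (19.7% of all genes), namely ACTB, PMS2, EIF2AK1, USP42 and RAC1. xChIP H1.2 filled the promoter of every member except TNRC18 (29.3% of all genes). xChIP H1.5 filled those of ACTB, EIF2AK1 and RAC1 (5.69% of all genes), and covered 23.1% of the promoter of PMS2 and 13.2% of that of USP42. When the window was narrowed to TSS ± 500 bp, or when at least 50% of the promoter had to be covered, the H1.5 count was 3. With canonical starts it was 4, since ACTB dropped out. The shares over all genes were not at hand for these 3 settings.

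**Figure D3:**
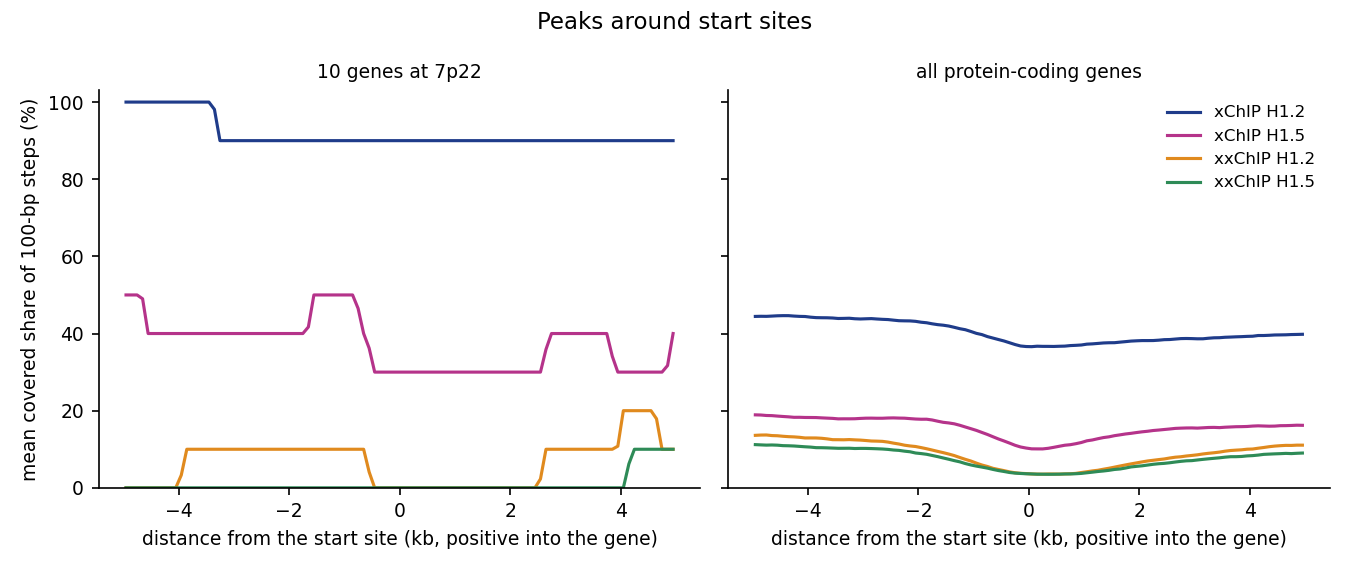
Mean percentage of 100-bp steps covered by each list from 5 kb upstream to 5 kb downstream of the start, for the 10 genes (left) and for all protein-coding genes (right). Over the members the xChIP H1.2 line stays between 90.0 and 100%. Over all genes it is 36.6% at the start, 44.4% at the upstream edge and 39.8% at the downstream edge.

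No start of a member lay under an xxChIP peak. The distance from the start to the nearest xxChIP H1.2 peak ranged from 560 bp (CYTH3) to 81546 bp (FBXL18), and that to the nearest xxChIP H1.5 peak from 4138 bp (CYTH3) to 63862 bp (TNRC18). Promoters touched by xxChIP were uncommon in general, with 8.78% of all protein-coding genes for H1.2 and 7.92% for H1.5, against 1 and 0 of the 10 members.

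Within the genes, the 5′ and 3′ ends differed. xChIP H1.2 filled the 5 kb at the 5′ end in 9 of 10 members (23.3% of 14863 protein-coding genes of at least 10 kb) but the 5 kb at the 3′ end in 5 (15.4%), namely TNRC18, FBXL18, ACTB, FSCN1 and PMS2. USP42, CYTH3 and RAC1 had no xChIP H1.2 base in the last 5 kb, as had 47.5% of these genes over the genome. The genes USP42 and CYTH3 converge, and their 3′ ends fell into the same gap of 20666 bp (chr7:6192873-6213538), the longest without xChIP H1.2 in the 2 Mb, in which the other 3 lists had no base either. Over the same 14863 genes, the mean xChIP H1.2 coverage was 39.2% in the first 5 kb and 30.4% in the last, compared with 90.0% and 62.0% in the members.

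Exons were covered less than introns in 4 members, whose 3′ ends were bare or partly bare. In USP42 xChIP H1.2 covered 21.3% of exon bases and 73.4% of intron bases, in CYTH3 11.9% and 59.8%, in RAC1 32.9% and 81.0%, and in EIF2AK1 53.5% and 91.6%. In TNRC18, FBXL18 and RNF216 exons were instead above introns, and in ACTB, FSCN1 and PMS2 both were at 100%. RNF216 had 87.0% of exon and 78.0% of intron bases covered, although its 3′ end was also partly bare (71.6% of the last 5 kb). Exon coverage was thus the lower in 4 members, and this was so in 58.7% of 18029 protein-coding genes with introns.

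**Figure D4:**
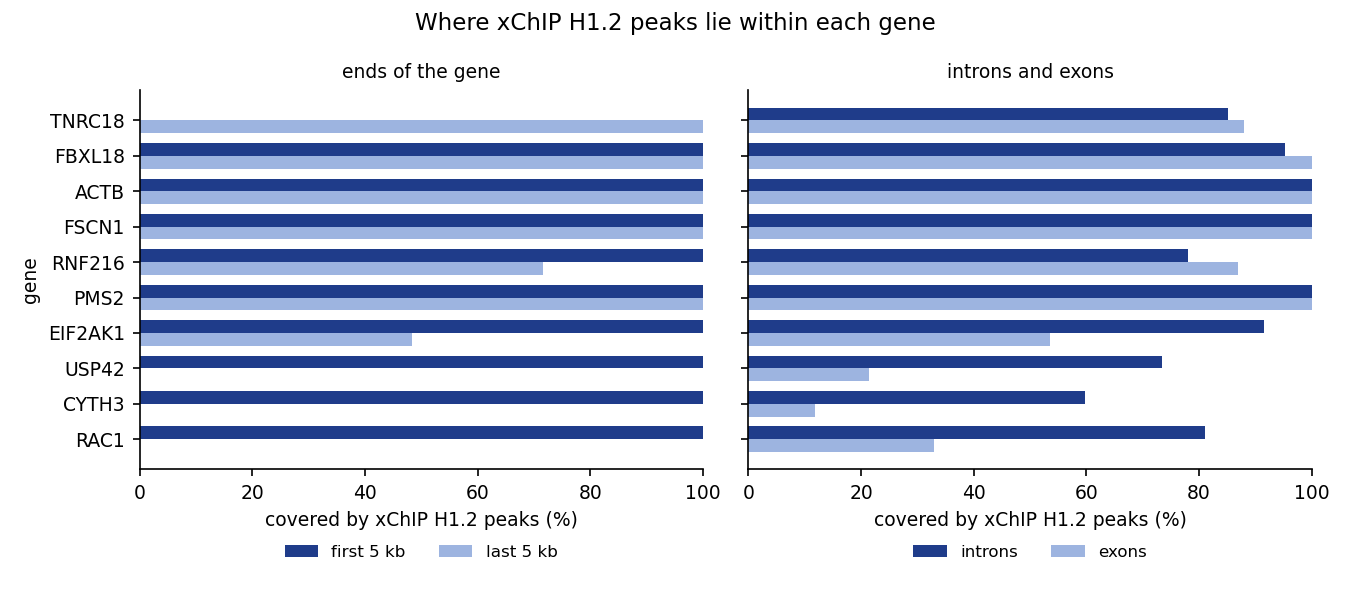
Percentage covered by xChIP H1.2 peaks in the 5 kb at the 5′ end and the 5 kb at the 3′ end (left) and in introns and exons (right) of each gene. The 3′ ends of USP42, CYTH3 and RAC1 are at 0%, whereas TNRC18 shows the reverse, with 0% at the 5′ end and 100% at the 3′ end.

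The few xxChIP peaks within the members were short and did not coincide between antibodies. There were 18 for H1.2 and 12 for H1.5, with a median length of 1540 bp, and 8 of these 30 touched an exon. Of them 26 lay wholly within an xChIP H1.2 peak and 2, in RNF216 and RAC1, had no xChIP H1.2 base (both picked out after their values were seen), where xChIP H1.2 covered 89.1% of the interval as a whole. No xxChIP H1.2 peak of a member overlapped an xxChIP H1.5 peak. Over the 2 Mb, 2 of 49 xxChIP H1.2 peaks (4.08%, 95% Wilson interval 1.13 to 13.7%, covering counting error only) touched an xxChIP H1.5 peak, against 54.8% over the genome. Sparse lists meet less often than dense ones, and that part of the difference was not tested.

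The interval also stood out in sequence. Its GC content was 48.9%, compared with 40.8% on chromosome 7 and 40.9% over chromosomes 1 to 22 and X, and its median 10-kb window exceeded 88.9% of windows of the genome. It held 15.5 protein-coding starts per Mb (7.09 over the genome), and its left and right Mb held 495 and 431 CpG islands, more than 98.4% and 97.2% of 2886 windows of 1 Mb, respectively. The median promoter of the members had a GC content of 60.1% and an observed/expected CpG ratio of 0.773, against 55.0% and 0.612 for all protein-coding genes. High GC moved with xChIP H1.2 coverage across the genome (Pearson's r = 0.372, Spearman's rho = 0.385 over 283564 windows), and less so within the interval (r = 0.184, rho = 0.282 over 200 adjoining windows, which share peaks). xChIP H1.2 filled 148 of these 200 windows completely, which leaves it little spread there. For xChIP H1.5 the values were r = 0.0168 over the genome and -0.0176 within the interval. With xxChIP H1.2 they were r = -0.282 and -0.287. With xxChIP H1.5 they were r = -0.222 and -0.180 (rho = -0.236 and -0.0684). In windows of like GC content (45.9 to 52.0%), xChIP H1.2 covered on average 44.9% of 34413 windows over the genome and 93.8% of the 100 windows of the interval. The difference of at least 20 points for both antibodies was present in 19.6% and 59.0% of these windows, respectively. The interval was chosen on this coverage, so its higher shares were built in, and the part of GC was not tested.

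Among the 26 relatives of the members elsewhere in the genome, the difference was present for H1.2 in 17 (46.8% of all genes), and the median xChIP H1.2 coverage was 41.2% (26.3% over all genes). For both antibodies it was present in 3 of 26 (13.4% of all genes), namely RHOA, FSCN2 and FSCN3. The members, with 8 of 10, had been selected on these values, whereas the relatives had not. ACTG1, the other cytoplasmic actin, was covered over 69.9% by xChIP H1.2 and, as the canonical ACTB transcript, over 0% by xChIP H1.5. The muscle actins ranged from 0% xChIP H1.2 in ACTA1 and ACTC1 and 6.95% in ACTA2 to 30.4% in ACTG2. The fascins FSCN2 and FSCN3, unlike FSCN1, had xChIP H1.5 over 64.3 and 42.8% of their bodies. The hematopoietic RAC2 was the relative with the most xxChIP (35.3% for H1.2 and 39.4% for H1.5), where RAC1 had 11.6% and 3.73%. None of the 6 mismatch repair relatives, the 3 kinases of eIF2 and the 3 cytohesins showed the difference for both antibodies, beside a share of 13.4% over all genes.

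**Figure D5:**
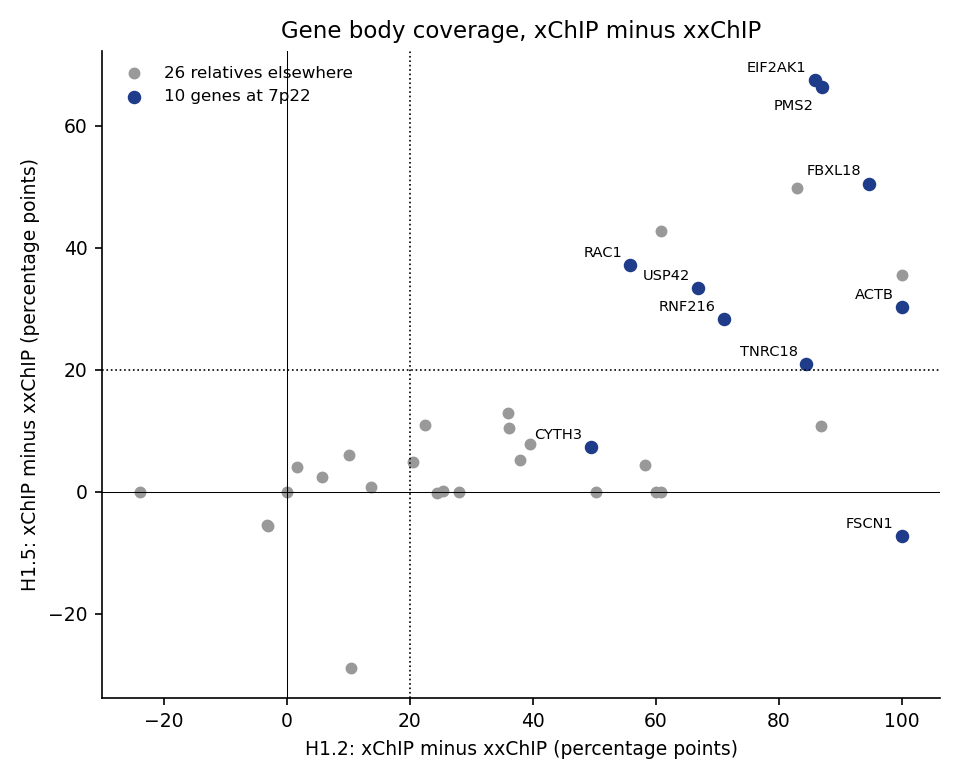
Gene body coverage by xChIP minus that by xxChIP in percentage points, for H1.2 (horizontal) and H1.5 (vertical), with dotted lines at 20 points. Of the 10 genes (blue), 8 lie beyond both lines, FSCN1 and CYTH3 lie below the line for H1.5, and 3 of the 26 relatives (grey) lie beyond both.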

How the data were processed

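xChIP-seq and xxChIP-seq against H1.2 and H1.5 were done on 12 samples of HL-60/S4 cells (the 6 Inputs were not used here). Read pairs were mapped by the authors on hg19 (Bowtie2, unique placements only). The authors then called peaks per replicate with MUSIC at default parameters and deposited, for each combination of protocol and antibody, the merged peaks of 3 replicates as positions in bp without score or read number. All 4 lists ended within the chromosome lengths of GRCh37, the build of hg19. No per-sample column was present, so 0 such columns were left unused.

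Bases covered by each list were counted in gene bodies, TSS ± 1000 bp (an overlap of 1 bp counted), exons and 10-kb windows with at least 50% known sequence, with GENCODE v44 lifted to GRCh37. The coverage arithmetic was tested on simulated data. Repeated sequence meant words of 100 bp found elsewhere on chromosomes 1 to 22 and X, on either strand. RefSeq promoters (GRCh38.p14 table) were placed on hg19 by exact match. Islands were found in unmasked sequence. Python 3.11.15, numpy 2.4.6, numba 0.67.0 and matplotlib 3.10.9 were used.

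The members and gene lists were chosen with earlier results of these data known. Genes named were the members, their listed relatives, other genes of the interval whose promoter met an xxChIP peak or whose xChIP H1.2 coverage was lowest, and the longest peaks. The 5′ and 3′ ends, exons against introns, windows of like GC, gaps and the genes next to the interval were examined after the data were seen. No test was made, since the choice used these values. Thresholds, promoter widths, minimum peak lengths, transcripts and repeated sequence were varied.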

Additional observations from a re-analysis of the deposited data

Results flagged for a closer look

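The protocols differed in opposite directions for the antibodies in FSCN1. Its gene body was covered 100 percentage points more by xChIP than by xxChIP for H1.2, but for H1.5 the same difference was -7.29 points, with 0% under xChIP and 7.29% under xxChIP from a single peak of 1009 bp. Each of these values comes from merged lists without a spread between replicates, and the difference between the antibodies was not tested. In the other 9 genes xChIP exceeded xxChIP for both antibodies.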

How the results depend on the processing

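No paired analysis was possible because each list is a merge of its replicates, and for the same reason no replicate could be left out. The count of members with the difference for both antibodies (8) was 3 with a limit of 40 percentage points and 3 over exons, and stayed between 7 and 8 with 10 points (24.4% of all genes), with peaks of at least 2000 bp and with canonical transcripts. A minimum of 1000 bp removed no peak of the interval. The count of promoters with xChIP but no xxChIP was 8 or 9 for H1.2 under every alternative tried. For H1.5 (5) it was 3 with TSS ± 500 bp and 3 when at least 50% of the promoter had to be covered, and 4 or 5 otherwise. The share of 10-kb windows with the difference for both antibodies (54.5%) was 66.5% with 10 points and 34.5% with 40 points, and 52.0 to 60.0% with other window sizes, longer peaks or repeated windows left out. Among these alternatives, shares over all genes or windows were at hand only for gene bodies with 10 or 40 points and for exons. Coverage of the 2 Mb moved in every case, and the merged lists give no spread against which to judge these shifts. With peaks of at least 2000 bp it was 88.0% (H1.2) and 33.4% (H1.5) in xChIP, and 2.50% and 0.454% in xxChIP. Without repeated sequence it was 88.4%, 33.5%, 4.67% and 2.08%, and over the bases of the 10 genes alone 80.1%, 33.1%, 4.49% and 2.44%, in the same order. The order of the 4 lists was the same in each of these. The lists give no depth, so what depth limits could not be assessed.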

Other observations

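The other 21 protein-coding genes with a start in the interval resembled the 10 genes. The interval was chosen on its coverage, so this likeness was built in and carries no test. Some of the 21 genes also overlap one another. All 21 had an xChIP H1.2 difference of at least 20 points (46.8% of all protein-coding genes) and 13 had it for both antibodies (13.4%), and xChIP H1.2 filled the promoter of every one of them. Their lowest xChIP H1.2 coverage was 52.3% in the zinc finger gene ZNF12, followed by 57.2% in ANKRD61 and 68.2% in RBAK. OCM, which encodes the calcium-binding protein oncomodulin, was the only one of them whose promoter met an xxChIP peak, with 18.4% of it under xxChIP H1.2, beside 34.2% of its body.

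The interval contains duplicated genes, and their copies differed in xChIP H1.5 without a common direction. RSPH10B, next to PMS2, was covered over 77.6% by xChIP H1.5 and 14.0% by xxChIP H1.2, whereas RSPH10B2 near the right border had 98.3% and 0%. Repeated words of 100 bp made up 94.3% and 94.2% of these genes, respectively, and the part of mappability in this difference was not tested. In the other pair the left copy, CCZ1, had more xChIP H1.5 (42.5%) than the right one, CCZ1B (29.9%). xxChIP H1.2 was higher in the left copy of both pairs, with 4.43% in CCZ1 and 0% in CCZ1B. Both pairs were picked out after their values were seen. Over the interval, repeated bases (12.8% of it) were covered in xChIP over 94.5% by H1.2 and 54.1% by H1.5, against 88.4% and 33.5% of the other bases, and in xxChIP over 5.34% against 4.67% by H1.2 and 1.52% against 2.08% by H1.5.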
